A study of Homo sapiens with 4 samples.

Results

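The genes described here are the interleukins, the chemokines and their receptors, with a few cytokines that signal beside them (LIF, OSM, CSF1, CSF2, CSF3, TSLP, MIF and the serum amyloid A genes SAA1 and SAA2). They were chosen by gene symbol alone, and 146 of the 18336 genes on the array matched. The cells were DLD-1, a long-used line from a human colorectal adenocarcinoma, measured on single-colour microarrays. The tested line, DLD-1-HMGA2, carried a tGFP-tagged pCMV6-HMGA2 plasmid, and its control, DLD-1-Vector, carried pCMV6-AC-GFP without the HMGA2 insert. HMGA2 is an AT-hook chromatin protein of embryonic tissue that many tumours make again. Stable clones of both had been picked under G418 at 1 mg/mL and then grown in 0.5 mg/mL, so both carried a GFP plasmid and a resistance gene. How many clones make up each line is not given in the labels. Both were grown with 10% serum, and the labels call the cells untreated. There were 2 arrays of the HMGA2 line and 2 of the vector line, and nothing in the labels says that the arrays of a line came from separate cultures. P-values therefore reflect array-to-array spread alone, and that spread may be technical.

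Interleukins and chemokines are small secreted proteins that carry signals between cells. Chemokines bind receptors with 7 transmembrane segments and draw leukocytes, while most interleukins join the chains of a receptor complex and act through JAK kinases and STAT factors. The IL-1 and IL-17 families use other adaptors that lead to NF-kB. Gut epithelium is both a source and a target of these signals: it sends neutrophil-attracting chemokines, stores IL-18 and IL-33, and carries receptors for IL-22, IL-17 and IL-4.

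As deposited, HMGA2 itself did not separate the groups in the way the labels say. Its brighter probe read 3917 and 4369 on the arrays labelled HMGA2, against 5576 and 5270 on the arrays labelled vector (log2 difference -0.39, SE 0.10, limma adjusted p = 0.0171, all probes fitted). The other HMGA2 probe read 4596 and 3466 on the arrays labelled HMGA2, against 2728 and 3493 on those labelled vector (0.37, SE 0.17, adjusted p = 0.129). After quantile normalization the brighter probe gave -0.19 and no longer passed (adjusted p = 0.113, limma, all probes fitted). The other probe then gave 0.59, the direction of the labels, and passed (adjusted p = 0.045). The position of these probes relative to the insert was not given, and whether they read it is unknown. Every direction below rests on the array labels. Median probe intensity was 607 to 649 on the arrays labelled HMGA2 and 698 to 767 on those labelled vector. The median log2 difference over all tested genes was -0.09 as deposited and 0.09 after quantile normalization, a shift of 0.18 that moves small differences across the threshold. Of 9 tested colon epithelial markers 3 were higher (EPCAM 0.26, CDH1 0.26 and VIL1 1.23) and 3 lower (KRT8 -2.43, LGALS4 -0.76 and CDX2 -0.62), all log2 differences past the threshold. That is 66.7% called, against 43.6% of all tested genes. KRT8, an epithelial keratin, read 871 and 842 on the arrays labelled HMGA2, against 4811 and 4398 on those labelled vector (adjusted p = 7.93e-05, limma), while EPCAM read 290962 and 281091 on the arrays labelled HMGA2 and 243656 and 234684 on those labelled vector. The epithelial markers summed to 525726 and 533087 on the arrays labelled HMGA2 and 477278 and 454060 on those labelled vector. The leukocyte marker PTPRC read 116 and 31 on the arrays labelled HMGA2 and 25 and 58 on those labelled vector, below the limit for dim genes. Of the 9 leukocyte markers on the array, 5 were above that limit, and the probe for CD3D, a T-cell receptor chain, read 9451 to 12672. Whether that signal comes from CD3D RNA was not tested, so a bright probe alone is not taken here as proof of expression. Of the tested leukocyte markers 1 was higher and 1 lower (40% called, against 43.6% of all tested genes). The 9 leukocyte markers summed to 18183 and 17315 on the arrays labelled HMGA2 and 15862 and 18309 on those labelled vector. Fibroblast and endothelial markers summed to 6718 and 6026 on the arrays labelled HMGA2 and 6680 and 7985 on those labelled vector. The part of these markers in any result below was not tested.

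Most members were not above background by the stricter of the limits used here. The deposited table holds no detection flags, so background was judged against limits taken from the intensities. The first was the 25th percentile of all genes (an intensity of 234, log2 7.87). At or above it, by the choice of limit, were 13752 of all 18336 genes. Of the 146 members 90 lay there (61.6%), and these were tested. A stricter guide came from 287 olfactory receptor genes, which a colon line is not known to use. Their 95th percentile lay at 3594 and 4391 on the arrays labelled HMGA2 and at 5876 and 5264 on those labelled vector. Of these olfactory genes 47.4% fell below the limit for dim genes, so being tested is weak evidence of expression. By the stricter guide 8 members were above background on all 4 arrays: MIF, CSF3, CXCL5, CCL26, IL18, CXCL16, IL4R and IL13RA1. A further 5 (CSF1, LIF, IL9R, IL27 and IL12A) were above it on 1 or 2 arrays, and 133 on none. A like filter on group means kept 13 members and 5876 of all 18336 genes.

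**Figure D1:**
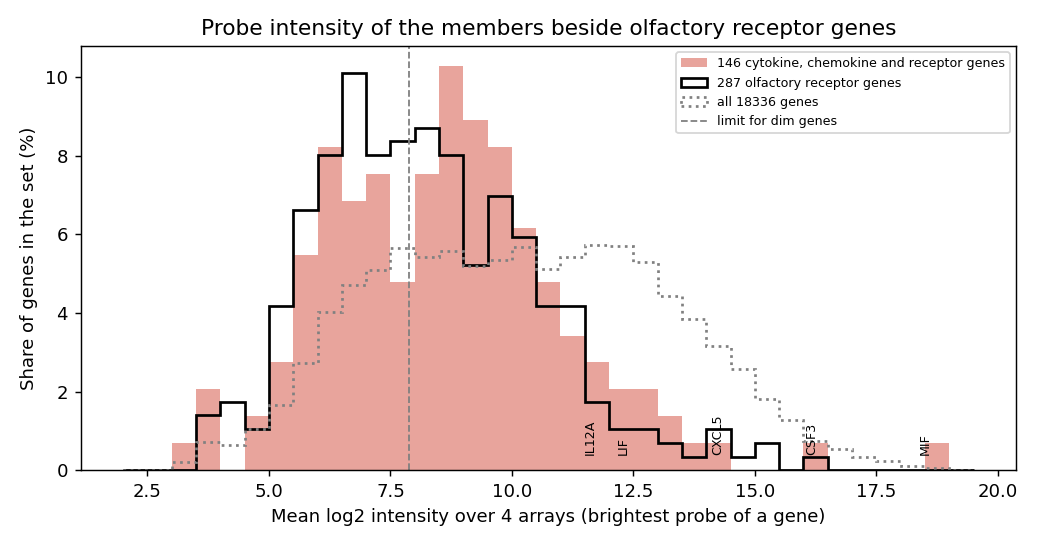
Histogram of mean log2 probe intensity over the 4 arrays (x axis) as the percentage of each set of genes (y axis), for the 146 members (filled), 287 olfactory receptor genes (black line) and all 18336 genes (dotted line). The dashed line marks the limit for dim genes at 7.87, below which 56 members lie, and MIF and CSF3 stand at the bright end.

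Of the 90 tested members, 28 passed a limma adjusted p of 0.05 (31.1%), against a background of 43.6% of all 13752 tested genes. At an adjusted p of 0.01, 5 were higher (background 7.54%) and 13 lower (background 19.6%). With a log2 difference of at least 1 as well as the threshold of 0.05, 10 were called (background 9.48%), 3 higher (background 1.31%) and 7 lower (background 8.17%). On the arrays labelled HMGA2 9 members were higher (background 14.9%) and 19 were lower (background 28.7%). At the threshold of 0.05 alone the called share of the members was thus below that of all genes. With the added log2 difference of 1 the total share was close to the background. The 3 higher members there, SAA1, LIF and CCL25, are too few for a comparison of shares. In addition, SAA1 (180 and 198) and CCL25 (218 and 227) were dim in the vector line. These genes entered the tests only through their higher readings in the HMGA2 line. Among tested olfactory receptor genes 20.5% were called. Both arrays labelled HMGA2 lay above both labelled vector for 19 tested members (background 27.7%) and below them for 34 (background 43.6%, and 71.3% in either direction). After quantile normalization 23 members were higher (background 28%) and 17 lower (background 22.6%, and 50.6% in either direction). Normexp background correction before it gave the same counts (background 50.7%). All 9 rises were kept there, as were 16 of the 19 falls, and 0 members were called in opposite directions. The rest of the account gives the members that passed, by role. Of the 28, 19 stayed below the olfactory guide on all 4 arrays and 17 rest on a single probe.

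**Figure D2:**
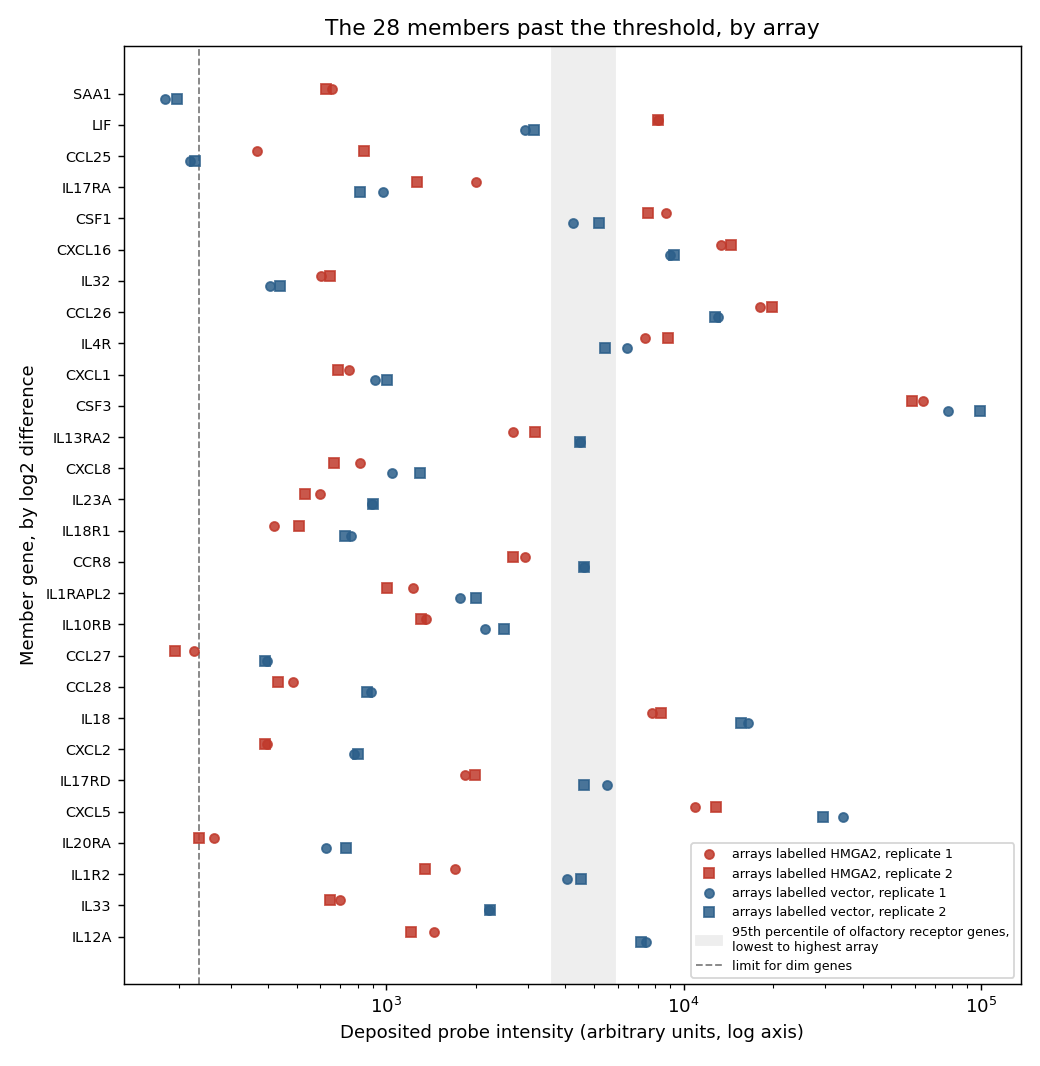
Deposited probe intensity (x axis, arbitrary units, log axis) of the 28 members past the threshold (y axis, largest rise at the top), with 1 point per array in red for the arrays labelled HMGA2 and blue for those labelled vector. The groups do not overlap for any of the 28, which is what a threshold of this kind tends to select, and the grey band marks the 95th percentile of olfactory receptor genes, 3594 to 5876.

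Of the neutrophil-attracting CXC chemokines that the symbol rule takes in, 6 lie together on chromosome 4 in the order CXCL8, CXCL6, CXCL1, CXCL5, CXCL3 and CXCL2. As deposited 4 of them fell (background 28.7% lower), CXCL1 by a fragile call, and CXCL6 was too dim to test. These ligands act through CXCR1 and CXCR2 and are textbook targets of NF-kB. The stretches just before their start sites are shown because all 6 hold a match to the NF-kB-like motif GGNNTTTCC in the same orientation. They come from RefSeq on GRCh38.p14, 120 bases each, read 5′ to 3′ along the gene and ending at the base before the annotated start, with motif matches in capitals.
CXCL8: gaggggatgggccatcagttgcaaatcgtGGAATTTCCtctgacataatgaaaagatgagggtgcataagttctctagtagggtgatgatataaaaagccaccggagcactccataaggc
CXCL6: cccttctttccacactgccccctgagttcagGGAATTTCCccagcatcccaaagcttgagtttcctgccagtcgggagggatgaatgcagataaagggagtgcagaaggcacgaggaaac
CXCL1: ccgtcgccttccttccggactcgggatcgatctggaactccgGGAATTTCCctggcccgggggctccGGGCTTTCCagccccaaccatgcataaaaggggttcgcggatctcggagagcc
CXCL5: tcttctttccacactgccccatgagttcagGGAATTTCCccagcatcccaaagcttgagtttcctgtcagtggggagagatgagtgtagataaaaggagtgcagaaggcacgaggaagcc
CXCL3: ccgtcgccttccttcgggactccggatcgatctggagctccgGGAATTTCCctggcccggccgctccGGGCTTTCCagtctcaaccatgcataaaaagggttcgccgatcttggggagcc
CXCL2: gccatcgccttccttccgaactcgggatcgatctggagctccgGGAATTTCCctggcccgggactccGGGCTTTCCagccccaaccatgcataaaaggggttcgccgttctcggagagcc

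The windows are chr4:73740449-73740568 (plus strand) for CXCL8, chr4:73836558-73836677 (plus) for CXCL6 and chr4:73869273-73869392 (plus) for CXCL1. Those of CXCL5 (chr4:73998678-73998797), CXCL3 (chr4:74038690-74038809) and CXCL2 (chr4:74099196-74099315) are on the minus strand. The first match begins 91 bases before the start in CXCL8, 89 in CXCL6 and 90 in CXCL5. CXCL1 and CXCL3 hold matches 78 and 53 bases before the start, and CXCL2 at 77 and 53. These genes are duplicates of each other, so the shared letters are not independent, and probes for such close copies may read each other's RNA. Over both strands of the 250 bases before the start, 23 of the 110 members with a promoter in the table held the motif (20.9%), against 6.69% of all genes in it. Among members the share was 2 of 4 that were higher, 6 of 15 that were lower and 7 of 47 that were tested and not called. The 6 lower members include the duplicates CXCL8, CXCL1, CXCL5 and CXCL2, so that share does not come from independent genes. CXCL3 is among the 7 not called. A match describes letters only.

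CXCL5 was the brightest of the 6 and moved the most. It read 10888 and 12904 on the arrays labelled HMGA2, against 34316 and 29374 on those labelled vector, 2.68-fold lower (log2 -1.42, SE 0.12, adjusted p = 0.00042, limma). The groups stood well apart, and its other probe gave -2.14 (SE 0.09). CXCL2 read 397 and 391 on the arrays labelled HMGA2, against 776 and 804 on those labelled vector (log2 95% interval -1.37 to -0.63, adjusted p = 0.00317). CXCL8, also called interleukin 8, read 812 and 665 on the arrays labelled HMGA2, against 1048 and 1302 on those labelled vector (-0.67, SE 0.17, adjusted p = 0.0211). Both were low on the arrays labelled HMGA2 without overlap, and CXCL8 lost its call without HMGA2 replicate 2 (-0.52, adjusted p = 0.0736). CXCL1 read 747 and 685 on the arrays labelled HMGA2, against 914 and 1005 on those labelled vector (-0.42, SE 0.13, adjusted p = 0.0454). That call was fragile: the adjusted p was 0.188 after quantile normalization and 0.0557 to 0.189 when any 1 of the 4 arrays was left out, and its other probe gave 0.11 (adjusted p = 0.61). CXCL3 read 674 and 440 on the arrays labelled HMGA2 and 413 and 475 on those labelled vector, with overlap (0.30, adjusted p = 0.374). CXCL6 was dim, at 88 and 37 on the arrays labelled HMGA2 and 15 and 53 on those labelled vector.

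**Figure D3:**
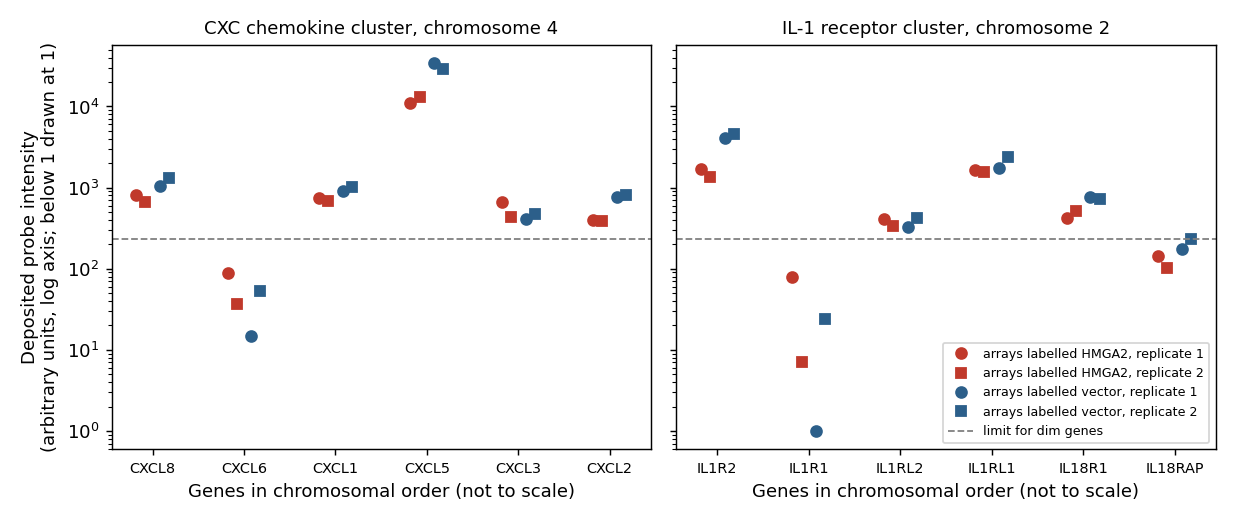
Deposited probe intensity (y axis, log axis) of neighbouring members in chromosomal order (x axis, not to scale), with 1 point per array in red for the arrays labelled HMGA2 and blue for those labelled vector. In the chromosome 4 cluster CXCL5, CXCL8, CXCL1 and CXCL2 sit lower on the arrays labelled HMGA2, CXCL3 overlaps and CXCL6 is below the dashed limit for dim genes; in the chromosome 2 cluster IL1R2 and IL18R1 sit lower.

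Platelet factor genes of the same cluster, which the symbol rule leaves out, went opposite ways. PF4 read 1707 and 2356 on the arrays labelled HMGA2 and 3812 and 3127 on those labelled vector (-0.78, SE 0.18, adjusted p = 0.0147, limma), a call lost after quantile normalization (-0.55, adjusted p = 0.0508). PPBP read 1053 and 802 on the arrays labelled HMGA2 and 354 and 564 on those labelled vector (1.04, SE 0.26, adjusted p = 0.0213). Of the receptors named above for the members of this cluster, CXCR1 gave 0.15 (adjusted p = 0.373) and CXCR2 was dim.

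The membrane-bound chemokine CXCL16, a ligand of CXCR6, rose. It read 13385 and 14411 on the arrays labelled HMGA2, against 9000 and 9249 on those labelled vector, 1.52-fold higher (log2 0.61, SE 0.08, adjusted p = 0.00202, limma), and its other probe gave 0.65. CXCR6 overlapped between the groups (0.12, adjusted p = 0.584). CXCL14 gave -0.62 (adjusted p = 0.107) and passed after quantile normalization (-0.52, adjusted p = 0.0412). CXCL9, CXCL10, CXCL11, CXCL12, CXCL13 and CXCL17 were below the limit for dim genes. The interferon-induced trio CXCL9, CXCL10 and CXCL11 ranged from 46 to 271 over the 4 arrays.

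Among CC chemokines 2 rose and 2 fell of 15 tested (26.7% called, against 43.6% of all genes). CCL26 (eotaxin-3), a ligand of the eosinophil receptor CCR3, read 18138 and 19781 on the arrays labelled HMGA2, against 13096 and 12732 on those labelled vector, 1.47-fold higher (0.55, SE 0.08, adjusted p = 0.00296, limma). Among CC chemokines read by a probe that names 1 gene, it alone lay above the olfactory guide on any array. Of the left-out probes that name several genes, one shared by CCL3, CCL3L1 and CCL3L3 read 8642 and 10129 on the arrays labelled HMGA2 and 11694 and 10987 on those labelled vector, above the guide on all 4. Other probes for those same genes read 34 to 117, 73 to 126 and 860 to 1275, below the guide on every array. A probe for CCL14 and its readthrough with CCL15 was above it on 3 arrays, and one for CCL15 and that readthrough on 2. CCL28, a mucosal chemokine that binds CCR10 and CCR3, read 484 and 431 on the arrays labelled HMGA2, against 886 and 860 on those labelled vector (-0.93, SE 0.15, adjusted p = 0.0039). CCL27, the other CCR10 ligand, read 226 and 195 on the arrays labelled HMGA2, below the limit for dim genes, against 396 and 391 on those labelled vector. With the arrays labelled HMGA2 raised to that limit, the group means differed 1.68-fold (fitted log2 -0.91, adjusted p = 0.0225). Here and below, a fold of this kind compares the deposited group means on the log2 scale, not single arrays. It leaves out the error of the fit, and another scaling can make it smaller. The CCL27 call was lost without HMGA2 replicate 2 (adjusted p = 0.0967), vector replicate 1 (0.144) or vector replicate 2 (0.116).

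CCL25, which guides lymphocytes to the small intestine through CCR9, read 368 and 841 on the arrays labelled HMGA2, against 218 and 227 on those labelled vector, below the limit there. With the vector arrays raised to that limit, the group means differed 2.37-fold (fitted log2 1.32, SE 0.40, adjusted p = 0.0376, limma). The arrays labelled HMGA2 disagreed with each other, and without HMGA2 replicate 2 the difference was 0.73 (adjusted p = 0.181). CCL20, the epithelial ligand of CCR6, gave 0.28 (adjusted p = 0.335). CCL2, CCL5, CCL8, CCL11, CCL14, CCL15, CCL17, CCL18, CCL21 and CCL23 did not pass either, though CCL14, CCL20 and CCL21 did after quantile normalization. A further 7 CC chemokines were too dim to test by their single-gene probes, CCL3 (52 to 152) among them.

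Chemokine receptors were mostly dim, with 10 of 17 below the limit. CCR8, a receptor for CCL1, read 2935 and 2671 on the arrays labelled HMGA2, against 4637 and 4637 on those labelled vector (-0.73, SE 0.09, adjusted p = 0.00159, limma). Its other probe read 117 to 254 over the 4 arrays and did not pass (-0.39, adjusted p = 0.521). CCL1 was dim. CXCR4, the receptor of CXCL12, read 2723 and 2511 on the arrays labelled HMGA2 and 2027 and 2456 on those labelled vector. Its difference of 0.23 (adjusted p = 0.184) passed after quantile normalization (0.47, adjusted p = 0.0227), as did those of CXCR1 and CCR3. ACKR3, printed as CXCR7 on the platform, was at or below 90 on every array.

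In the IL-1 family, by the brightest probe of each gene, 0 of 14 tested members rose and 5 fell, and 4 fell after quantile normalization. That is 35.7% of its tested members, near the background of 28.7% lower as deposited (22.6% after quantile normalization). The family median was -0.34, against -0.07 over all tested members and -0.09 over all tested genes. IL18, a cytokine kept as a precursor in gut epithelium until a caspase cuts it, read 7813 and 8402 on the arrays labelled HMGA2, against 16472 and 15628 on those labelled vector. It was 1.98-fold lower (log2 -0.99, SE 0.08, adjusted p = 0.000426, limma), and it was the only member of the family above the olfactory guide. IL33, a nuclear alarmin of epithelial and stromal cells, read 696 and 645 on the arrays labelled HMGA2, against 2209 and 2227 on those labelled vector (-1.73, SE 0.11, adjusted p = 0.000197). Neither gene showed overlap between the groups. IL1A (-0.18), IL1B (0.28) and IL36B (-0.36) did not pass, and the antagonist IL1RN gave -0.20 (adjusted p = 0.141). A dimmer IL1RN probe read 995 and 921 on the arrays labelled HMGA2 and 646 and 736 on those labelled vector. That probe went the other way and passed in a fit of all probes (0.47, adjusted p = 0.0284, limma). The other antagonist, IL36RN, read 2732 and 1284 on the arrays labelled HMGA2 and 1265 and 4060 on those labelled vector, with the largest SE among the tested members (0.58).

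IL1R2, a decoy receptor that binds IL-1 without signalling, read 1695 and 1347 on the arrays labelled HMGA2, against 4043 and 4530 on those labelled vector, 2.83-fold lower (-1.50, SE 0.14, adjusted p = 0.000537, limma). IL18R1, the ligand-binding chain for IL-18, had a dim second probe that read 22 to 107. Its brighter probe read 417 and 510 on the arrays labelled HMGA2, against 759 and 727 on those labelled vector (-0.69, SE 0.17, adjusted p = 0.0194). Its call was lost after quantile normalization (adjusted p = 0.0707) and without HMGA2 replicate 1 (adjusted p = 0.0833). Both genes lie in a row of 6 IL-1 receptor genes on chromosome 2. Between them, IL1RL2 gave 0.01 and IL1RL1, the IL-33 receptor, gave -0.33 (adjusted p = 0.151). IL1R1, the signalling IL-1 receptor, and IL18RAP, the accessory chain for IL-18, were below the limit for dim genes, and the IL1R1 probe read -19 to 79. The shared accessory chain IL1RAP gave -0.41 (adjusted p = 0.0564). With all probes fitted that probe passed (adjusted p = 0.0472), while other IL1RAP probes gave -0.20 and -0.01 without passing. IL1RAPL2, a relative best known from neurons, read 1229 and 1001 on the arrays labelled HMGA2 and 1774 and 1996 on those labelled vector (-0.76, SE 0.14, adjusted p = 0.00639).

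The largest difference among tested members was in the IL-12 family. IL12A encodes the p35 chain, which pairs with IL12B in IL-12 and with EBI3 in IL-35. It read 1447 and 1212 on the arrays labelled HMGA2, against 7470 and 7195 on those labelled vector, 5.54-fold lower (log2 -2.47, SE 0.11, adjusted p = 9.24e-05, limma). Both vector arrays lay above the olfactory guide and both HMGA2 arrays below it. IL23A, the p19 chain of IL-23, read 600 and 532 on the arrays labelled HMGA2, against 896 and 902 on those labelled vector (-0.67, SE 0.14, adjusted p = 0.0109). Without HMGA2 replicate 2 the IL23A difference was -0.58 (adjusted p = 0.0522). The partner chains IL12B and EBI3 were dim, IL12RB1 gave -0.08 (adjusted p = 0.736), and IL12RB2 and IL23R were dim. IL27 read 3994 and 3927 on the arrays labelled HMGA2 and 4002 and 4823 on those labelled vector (-0.15, adjusted p = 0.328).

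LIF was the largest rise of a gene above the limit for dim genes in both groups. It encodes a cytokine of the IL-6 family that signals through LIFR and IL6ST. LIF read 8177 and 8217 on the arrays labelled HMGA2, against 2922 and 3138 on those labelled vector, 2.71-fold higher (log2 1.44, SE 0.09, adjusted p = 0.000163, limma). The arrays of each group agreed closely. LIFR gave -0.34 (adjusted p = 0.189, 95% interval -0.80 to 0.11), and IL6ST, the shared signalling chain, gave 0.15 (adjusted p = 0.65). Among the other receptors of the family, OSMR (-0.10), IL6R (-0.25), IL11RA (-0.18) and IL31RA (0.17) did not pass. OSM, which lies beside LIF on chromosome 22, read 97 and 27 on the arrays labelled HMGA2 and 4 and 34 on those labelled vector, and IL6 (24 to 119) and IL11 (143 to 294) were also below the limit by mean level. CLCF1, another ligand that uses IL6ST, rose by 0.67 (SE 0.13, adjusted p = 0.00785).

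SAA1, an acute-phase protein that epithelia also make, read 656 and 627 on the arrays labelled HMGA2, against 180 and 198 on those labelled vector, below the limit for dim genes there. With the vector arrays raised to that limit, the group means differed 2.74-fold (fitted log2 1.76, SE 0.20, adjusted p = 0.00122, limma). Its neighbour SAA2 read 42 to 136 and was not tested. CSF1, the growth factor of macrophages, read 8727 and 7568 on the arrays labelled HMGA2, against 4254 and 5193 on those labelled vector, 1.73-fold higher (0.79, SE 0.13, adjusted p = 0.00412). The 2 other CSF1 probes gave 0.47 and 0.75 and also passed in a fit of all probes. CSF1R, its receptor, was below the limit, at 274 and 180 on the arrays labelled HMGA2 and 63 and 75 on those labelled vector.

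CSF3, the growth factor of neutrophils, was the second brightest member. It read 63814 and 58742 on the arrays labelled HMGA2, against 77642 and 99225 on those labelled vector (-0.52, SE 0.13, adjusted p = 0.0181, limma). After quantile normalization the difference was -0.44 and did not pass (adjusted p = 0.0542), nor did it with array medians subtracted (-0.30, adjusted p = 0.131). The brightest member was MIF, a cytokine that most cells hold preformed, at 373442 and 389887 on the arrays labelled HMGA2 and 371049 and 364641 on those labelled vector. Its difference was 0.05 (adjusted p = 0.541) with a 95% interval of -0.10 to 0.21. DDT, the close relative of MIF, rose by 0.26 (SE 0.07, adjusted p = 0.0227), and CD74, the MIF receptor chain, gave -0.01 (adjusted p = 0.932). IL32, a cytokine with no mouse counterpart, read 602 and 646 on the arrays labelled HMGA2 and 405 and 437 on those labelled vector (0.57, SE 0.16, adjusted p = 0.0333). The IL32 call was lost when any 1 of the 4 arrays was left out (adjusted p 0.0506 to 0.171), and 2 other IL32 probes gave 0.19 and 0.62 without passing.

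Receptors for IL-4 and IL-13 moved in different directions. IL4R, the chain that binds IL-4, had a dim second probe that read -19 to 67. Its brighter probe read 7425 and 8833 on the arrays labelled HMGA2, against 6470 and 5435 on those labelled vector, 1.37-fold higher (0.45, SE 0.13, adjusted p = 0.0316, limma). That call was lost without HMGA2 replicate 2 (adjusted p = 0.0889) or vector replicate 2 (adjusted p = 0.0954). IL13RA1, its partner in the receptor that epithelium uses, read 5904 and 6686 on the arrays labelled HMGA2 and 6824 and 6605 on those labelled vector, with overlap (-0.10, 95% interval -0.33 to 0.13). IL13RA2, a decoy for IL-13, read 2664 and 3152 on the arrays labelled HMGA2, against 4479 and 4483 on those labelled vector (-0.63, SE 0.11, adjusted p = 0.00512). IL4 was dim, IL13 gave 0.08, and the common gamma chain IL2RG gave -0.17 (adjusted p = 0.454). IL9R, a bright probe, overlapped between groups (0.05, adjusted p = 0.805). IL15 gave 0.43 (adjusted p = 0.0791) and passed after quantile normalization (0.64, adjusted p = 0.00541).

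IL7, a growth factor for lymphocytes that gut epithelium makes, was left out of the tests because its mean level over all 4 arrays lay below the limit. It is named here after its values were seen. It read 99 and 16 on the arrays labelled HMGA2, against 687 and 754 on those labelled vector. With the dim arrays raised to the limit, the group means differed 3.07-fold. Without the filter, limma gave a fitted log2 difference of -4.18 (SE 0.64, adjusted p = 0.000143), a size that rests on readings near 0. It was the only 1 of the 56 untested members to pass in that fit, and the receptor IL7R was dim.

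In the IL-10 family the shared receptor chain IL10RB read 1361 and 1306 on the arrays labelled HMGA2, against 2155 and 2495 on those labelled vector (-0.80, SE 0.11, adjusted p = 0.00249, limma), and its other probe gave -1.81. This chain serves IL-10, IL-22, IL-26 and the lambda interferons. IL20RA, a receptor chain for IL-19, IL-20 and IL-24, read 263 and 234 on the arrays labelled HMGA2, against 626 and 734 on those labelled vector, 2.73-fold lower (-1.45, SE 0.20, adjusted p = 0.00218). The HMGA2 values lay near the limit for dim genes. IL22RA1, the epithelial IL-22 receptor, overlapped (0.06, 95% interval -0.22 to 0.34). IL20RB (0.37, adjusted p = 0.0577) and IL22RA2, a soluble IL-22 binder (0.62, adjusted p = 0.0792), did not pass as deposited and did after quantile normalization. With all probes fitted, IL20RB also passed as deposited (adjusted p = 0.0484). Of the 6 ligands 5 were dim, and IL20 gave -0.64 (adjusted p = 0.107).

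Within the IL-17 family the receptors went opposite ways. IL17RD, which also restrains fibroblast growth factor signalling, read 1833 and 1990 on the arrays labelled HMGA2, against 5535 and 4628 on those labelled vector, 2.65-fold lower (log2 -1.41, SE 0.12, adjusted p = 0.000414, limma), and its other probe gave -1.18. IL17RA, the chain common to most IL-17 receptors, read 1998 and 1263 on the arrays labelled HMGA2 and 973 and 812 on those labelled vector (0.84, SE 0.23, adjusted p = 0.0279). The IL17RA call rests on 1 probe, since the other gave -0.20 (adjusted p = 0.269), and it was lost without HMGA2 replicate 1 (0.51, adjusted p = 0.0719). IL17C, an epithelial cytokine that binds IL17RA with IL17RE, read 1071 and 548 on the arrays labelled HMGA2 and 427 and 373 on those labelled vector (0.94, adjusted p = 0.0571). It passed after quantile normalization, and as deposited with all probes fitted (adjusted p = 0.0472). After quantile normalization 6 members of the family were higher and 1 was lower, against 1 and 1 as deposited, while the background of higher calls was 28% against 14.9%.

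**Figure D4:**
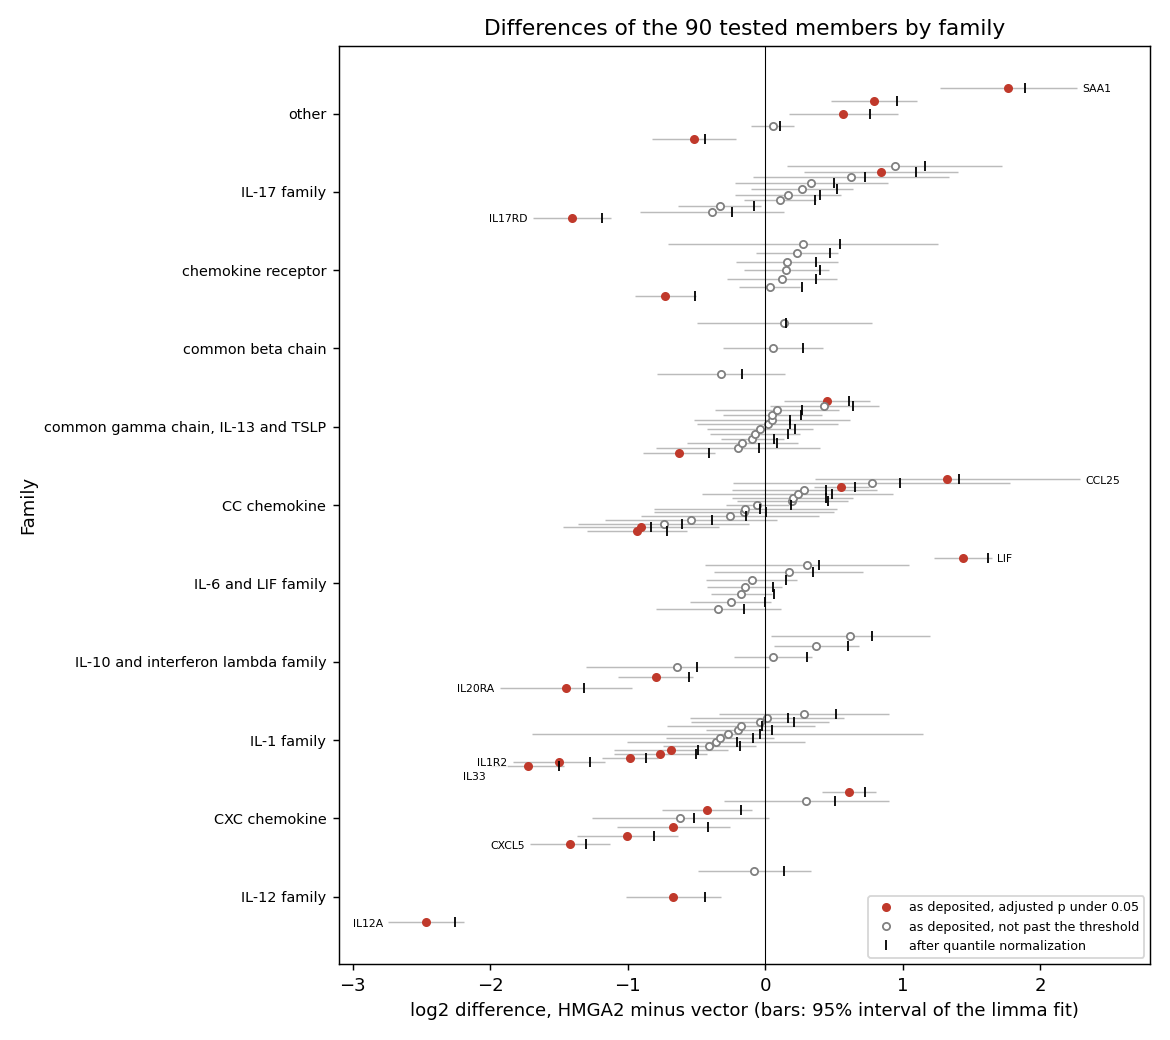
Log2 difference, HMGA2 minus vector (x axis), of the 90 tested members grouped by family (y axis), with bars for the 95% interval of the limma fit. Filled points passed an adjusted p of 0.05 as deposited, open points did not, and ticks show the value after quantile normalization, which lies to the right of nearly every point; IL12A at -2.47 and SAA1 at 1.76 are the extremes.

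The members closest to the limit for dim genes were IL3RA (mean log2 level 7.91) and IL31 (7.96) just inside, and CCR2 (7.84), IL11 (7.78) and IL37 (7.67) just outside. IL3RA and IL31 did not pass, and the other 3 were not tested.

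Genes downstream of these receptors were counted in the same fit. Of 24 JAK, STAT, SOCS and PIAS genes and phosphatases on the array, 6 were higher and 7 lower, with a median of 0.01 (54.2% called, against the background of 43.6%). The feedback inhibitor SOCS2 read 329 and 316 on the arrays labelled HMGA2, against 1391 and 1484 on those labelled vector (log2 -2.16, SE 0.14, adjusted p = 0.000205, limma). SOCS1 read 1053 and 1069 on the arrays labelled HMGA2 and 620 and 486 on those labelled vector (0.95, SE 0.16, adjusted p = 0.00507). SOCS7 rose by 0.92 and SOCS4 fell by 0.85. STAT3, the main factor activated by LIF and IL-6, is named after its values were seen. It read 17295 and 16776 on the arrays labelled HMGA2, against 12224 and 11199 on those labelled vector (0.54, SE 0.08, adjusted p = 0.00327). SOCS3, a STAT3 target, gave 0.02 with a wide spread (adjusted p = 0.974).

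Of 19 tested adaptors and processing genes of the IL-1 and IL-17 pathways, 4 were higher and 4 lower (42.1% called), with a median of -0.04. ZC3H12A, an RNase that degrades cytokine transcripts, fell by 0.85 (SE 0.10, adjusted p = 0.00131, limma). TRAF3IP2, the adaptor of IL-17 receptors, rose by 0.85 (SE 0.12) and CASP4, an inflammatory caspase, fell by 0.82 (SE 0.08). TAB3, a binding partner of the kinase TAK1, fell by 0.73. CASP1, which cuts IL-18, read 149 and 76 on the arrays labelled HMGA2 and 52 and 72 on those labelled vector, and its adaptor PYCARD was dim as well. Among 16 tested partner genes 5 were higher and 1 lower (37.5% called, against 43.6% of all genes). IL18BP, the soluble inhibitor of IL-18, read 1198 and 1096 on the arrays labelled HMGA2 and 583 and 785 on those labelled vector (0.76, SE 0.18, adjusted p = 0.0153).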

How the data were processed

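RNA was amplified, labelled with Cy5 and read on 1-colour arrays, per the labels' protocols. In the deposited table stands 1 linear intensity per probe and array (31741 probes). How the authors scanned, corrected or normalized the intensity values was not given in the labels. Groups and replicate numbers came from the sample titles.

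The platform annotation named 1 gene for 24740 probes, and 11 probes that match the rule but name several genes were left out. Symbols were updated through RefSeq (GRCh38.p14). A member is a gene whose platform symbol is CXCL, CCL, XCL, CXCR or CCR plus a number, CX3CL1, CX3CR1, IL plus a number with an optional letter or receptor suffix, or one of the cytokines named in the text. The members and lists were chosen with earlier results of these data known.

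The deposited values were floored at 1 and put on the log2 scale. Each gene was represented by its brightest probe, and genes whose mean level lay under the 25th percentile were not tested. A linear model (limma 3.58.1 under R 4.3.3, lmFit and trended eBayes) was fitted to all 13752 remaining genes, with Benjamini-Hochberg adjustment. The fit was tested on simulated data. The smallest two-sided p that an exact permutation test allows here is 0.333, and the number of arrays limits the precision.

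Named genes are all members past the threshold, the 10 brightest, those within 0.25 log2 of the limit, receptor or ligand partners, and up to 4 genes per other list. Alternatives were quantile normalization, median subtraction, normexp, other filters, probe means, a linear offset of 64, other variance models and thresholds, the replicate number as a block, and each array left out.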

Additional observations from a re-analysis of the deposited data

How the results depend on the processing

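As deposited, 9 members were higher and 19 lower among 5994 called genes. Members called higher numbered 23 after quantile normalization, 23 after normexp with quantile normalization, and 24 with array medians subtracted. A filter at the 50th percentile tested 37 members and called 11 lower. A filter from olfactory receptor genes tested 13 members and called 5 higher and 4 lower, with 3325 genes called in all. At an adjusted p of 0.01 there were 5 higher members and 3727 genes called. With a log2 difference of at least 1 there were 3 higher members, 7 lower and 1304 genes called. Leaving out 1 array gave 8 to 12 higher, 16 to 19 lower and 5269 to 5517 genes. Among called members, second probes bright enough to test turned the direction for CXCL1 (0.11) and IL17RA (-0.20), neither past the threshold. The cause was not tested, except that fewer genes were tested under the filters. Same-numbered arrays deviated with r = -0.20, and nothing in the labels says that a number pairs samples: with the replicate block 10 members were higher and 16 lower among 5329 genes. With the crossed block, added after the data were seen, these were 13, 24 and 7209. CCL26, CCL28, CSF1, CXCL16, CXCL2, CXCL5, IL10RB, IL12A, IL13RA2, IL17RD, IL18, IL1R2, IL1RAPL2, IL20RA, IL33, LIF and SAA1 kept their direction and call in every setting that tested them, the thresholds of 0.01 and log2 1 aside. Low signal limits what can be said of the 56 untested members.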
